A study of Mus musculus with 6 samples.

Results

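CD140a(+)/Sca1(+) cells are mononuclear stromal cells of mouse skeletal muscle that carry both CD140a, the PDGF receptor alpha (gene Pdgfra), and Sca1 (gene Ly6a). Their response to acute injury was read from 1 library of cells sorted from untreated contralateral muscle and 1 library sorted on day 3 after cardiotoxin (20 uM), a peptide of cobra venom that destroys muscle fibers, had been injected. The genes described are the 5996 of 22483 (26.7%) with a deposited value of at least 6 in one of these 2 libraries. That limit equals 52.7 normalized counts, and 3647 genes passed it in both libraries, 1576 after injury alone and 773 in the control alone.

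All mice were Swiss white and adult. The series holds 6 libraries, since CD140a(-)/Sca1(+) and CD140a(+)/Sca1(-) cells were sorted from the same 2 states. After digestion, the study kept the isolated cells in an incubator for several hours so that surface markers could recover. The part of that step in the RNA levels was not tested. The gate first removed cells carrying CD45, CD31 or CD11b, which mark leukocytes, endothelial cells and myeloid cells. How many mice went into a library is not given in the sources used here, and the muscle is uncertain: tibialis anterior in the labels, gastrocnemius and soleus in the text of the study for acute injury. With 1 library a state, a difference between control and injured CD140a(+)/Sca1(+) cells has no replicate check, and intervals cover counting error only. The RNA came from a pool of sorted cells, so a change in the makeup of the sort and a change in RNA per cell cannot be told apart.

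Cells with both proteins are the classic fibro-adipogenic progenitors (FAPs) of muscle. At rest they are quiescent cells of the connective tissue between fibers. After damage they divide, lay down a provisional collagen-rich matrix, and send signals that recruit leukocytes and help satellite cells, the muscle stem cells, to rebuild fibers, before their number falls again. They can also turn into fat cells or fibroblasts when repair fails.

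The libraries were first checked against the markers of the sort. Pdgfra stood at 26.3 normalized counts in the control and 1240.0 in the injured CD140a(+)/Sca1(+) library. In the other control libraries it stood at 211 in CD140a(-)/Sca1(+) and 33.6 in CD140a(+)/Sca1(-) cells, and in the injured ones at 335 and 203. The transcript was thus lowest in the control library labelled CD140a(+)/Sca1(+), and below the control library labelled CD140a(-). Ly6a stood at 253 and 4099, against 5850.0 and 1177 in CD140a(-)/Sca1(+) and 70.4 and 2.09 in CD140a(+)/Sca1(-) cells. The injured CD140a(+)/Sca1(+) library therefore carried both transcripts at a high level, while its control carried Pdgfra and Ly6a at a low one. The sort was made on protein, and the study describes this control sort as the one with the lowest enrichment.

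The same control library held the most RNA of endothelial cells and red blood cells. Over 40 endothelial marker genes, the summed level was 43342 normalized counts in this control and 1788 after injury, against 665 to 7490 in the other 4 libraries. Over 7 red blood cell genes it was 12162 and 666, against 0 to 1980. Most of the endothelial sum of 43342 lay in Fabp4 (29146) and Ednrb (7421), and Fabp4 also counts among the fat storage genes. In control CD140a(-)/Sca1(+) cells these genes stood at 2318 and 451, and in control CD140a(+)/Sca1(-) cells at 2590 and 464. Of the gate genes, Pecam1 (CD31) went from 105 to 1.51, Itgam (CD11b) from 18.5 to 8.48, and Ptprc (CD45) stood at 0.887 and 0.533, at or under the level of 3 reads. The part of these other cells in the differences below was not tested. Counts of genes 3-fold above or below all 3 control libraries are given as well, but they cannot separate that part. The other 2 controls are other sorts, and their endothelial sums were lower after injury too. They were 7490 and 1080 in CD140a(-)/Sca1(+) and 4558 and 665 in CD140a(+)/Sca1(-) cells. Estimated depth was 2348528 reads in the control and 4065419 after injury, so that 3 reads equal 2.65 and 1.59 normalized counts, and 33.4% and 33.9% of the genes of the table were listed at 0. The injured CD140a(+)/Sca1(-) library stood apart, with 69.1% listed at 0. Mitochondrially encoded genes took 3.80% of normalized counts in the control and 1.36% after injury.

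After injury, 1116 of the 5996 genes were at least 3-fold higher (18.6%) and 593 at least 3-fold lower (9.89%). Folds are taken on the deposited log2 scale, which shrinks changes of low counts, and 3-fold equals 1.58 on it. The 10-fold mark was passed by 190 genes upward and 96 downward. Most of the called genes had passed the value limit on 1 side alone, which favours a difference. Among the 3647 genes past the limit in both libraries, 305 were higher (8.36%) and 215 lower (5.90%). The median change was 0.39 over all 5996 genes and 0.18 over those past the limit in both. When the values were centred on the median, 780 genes were higher and 849 lower, so the share of calls that were increases moved from 65.3% to 47.9% with the scaling. Changes of single genes and lists below are not centred, and can be read against that median of 0.39. The counting interval of the fold excluded 1 for all 1116 and all 593 genes, and excluded 3 for 944 and 535 of them. These genes were picked at 3-fold on the same values, above the value limit. Intervals that exclude 1 thus follow from the limits and are no separate support. Just inside the value limit lay Slc26a6 (6.0001) and just outside it Mrpl13 (5.9986). Itih5 (1.5850) and Sdhd (1.5849) lay on either side of the limit for an increase, as did Trio (-1.587) and Tbcel (-1.583) for a decrease.

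**Figure D1:**
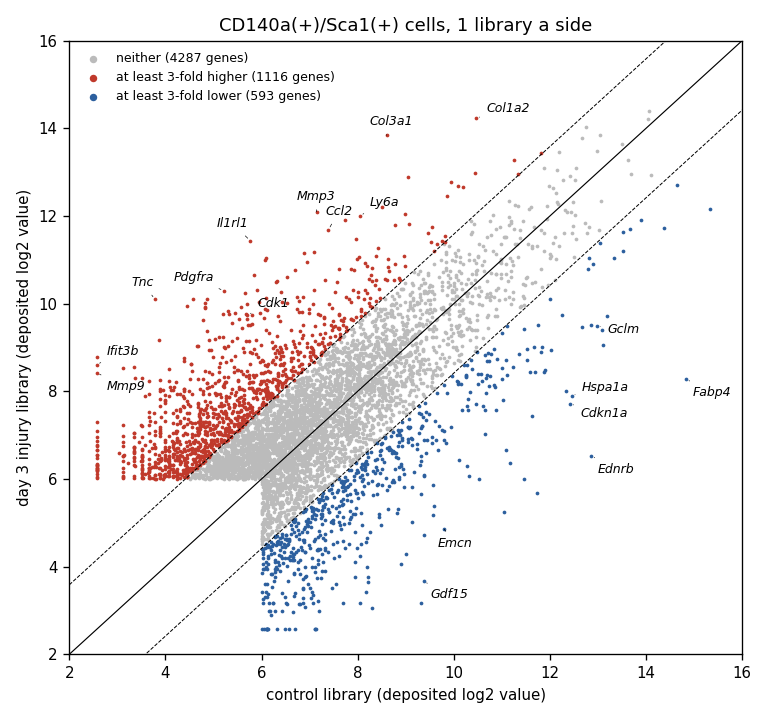
Deposited log2 value of each of the 5996 genes in the control (x axis) and day 3 injury library (y axis) of CD140a(+)/Sca1(+) cells. The solid line marks equality and the dashed lines 3-fold, with 1116 genes above the upper and 593 below the lower line, and the empty corner is the region under the value limit of 6 in both libraries.

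The injured library was also set against the other controls. With ties included, the CD140a(+)/Sca1(+) control was the lowest of the 3 control libraries for 833 of the 1116 higher genes and the highest for 486 of the 593 lower genes, against 2811 and 1799 of all 5996. Calls made against this control favour such genes, so these counts do not show how much the choice of control mattered. Held against each of the 3 controls, 269 genes were at least 3-fold higher after injury (4.49%) and 105 at least 3-fold lower (1.75%). The injured CD140a(+)/Sca1(+) library was the highest of all 6 for 617 of the 1116 genes, against 1519 of all 5996 (25.3%). A call of higher favours a high value in that library.

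The 20 largest increases included genes of matrix, inflammation, interferon response and DNA replication. Tnc, which encodes the provisional matrix protein tenascin C, went from 4.44 to 1082 normalized counts, 244-fold higher (95% counting interval 105 to 757). It is encoded at chr4:63959785-64047015 (GRCm38), minus strand. Mmp9, a gelatinase, and Ifit3b, an interferon-induced gene, were listed at 0 in the control and reached 330.1 and 378, at least 125-fold and 143-fold higher against a limit of 3 reads in that library. Il1rl1, the receptor of interleukin 33, went from 43.1 to 2763, 64.2-fold higher (95% counting interval 48.3 to 86.5). Timp1, an inhibitor of matrix metalloproteinases, went from 13.3 to 1090.2. Of these, Tnc also exceeded the other 2 control libraries by over 3-fold, at 45.3 and 32.3, and so did Timp1, at 229 and 77.5. Ifit3b did not, with 382 in control CD140a(-)/Sca1(+) cells.

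Some of the largest changes are uncertain because the genes resemble or overlap others. Tpm3-rs7, a retrotransposed copy of Tpm3, stood at 55.6 and 2038, and G530012D18Rik, one of a family of near-identical genes, at 0 and 427. LTO1 went from 57.3 to 2095 and lies on the plus strand at chr7:144915100-144931701, where its end overlaps that of Ccnd1 on the minus strand at chr7:144929931-144939925. Whether counting used the strand is not given in the sources used here, so reads of LTO1 and Ccnd1 cannot be told apart. The decreases include Hba-a1, Hspa1a and Hspa1b, each with a near-identical partner.

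**Figure D2:**
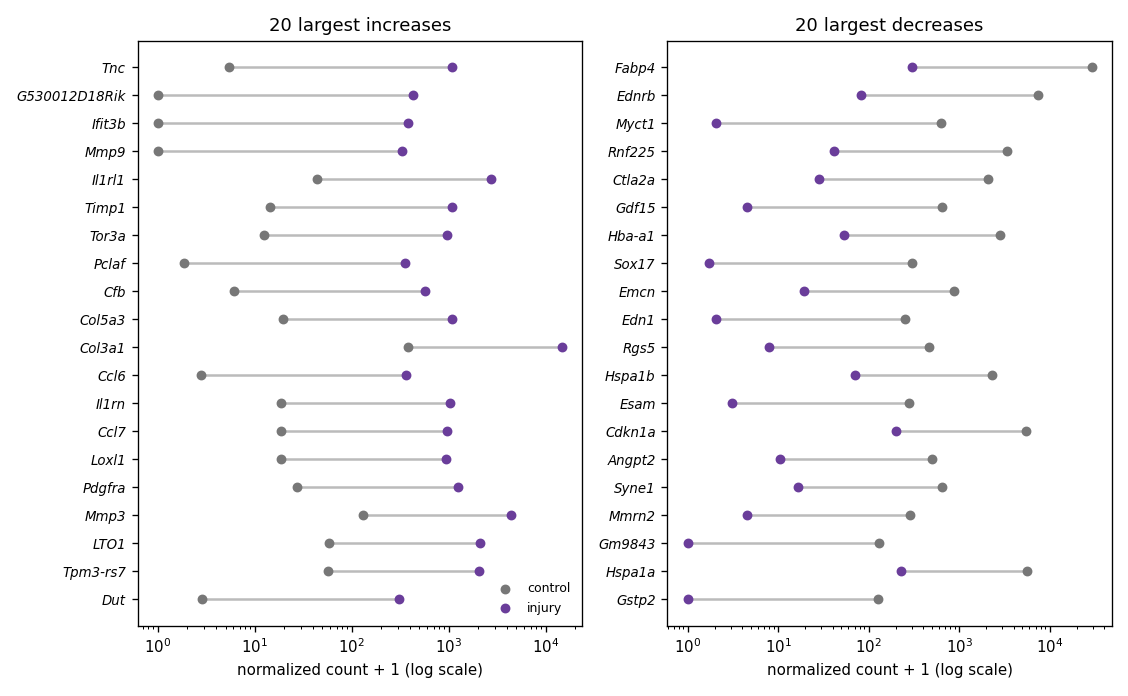
Normalized count plus 1 (x axis, log scale) in the control and injured CD140a(+)/Sca1(+) library for the 20 genes with the largest increase (left) and the 20 with the largest decrease (right) for genes whose higher library held 100 or more normalized counts. G530012D18Rik, Ifit3b and Mmp9 were listed at 0 in the control, and Gm9843 and Gstp2 after injury.

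All 7 fibrillar collagen genes kept of 11 in the table were at least 3-fold higher, with a median change of 4.07, 6 of them were also 3-fold above each of the 3 controls, and the 5 past the value limit in both libraries were all higher. Col3a1, the collagen of early granulation tissue, went from 376 to 14654 normalized counts, 39.0-fold higher (95% counting interval 35.4 to 43.0). Col1a2 and Col1a1, the chains of type I collagen, went from 1399 to 19199 and from 1374 to 8114. Among the chains of type V collagen, which starts fibrils, Col5a3 stood at 18.5 and 1092, Col5a1 at 67.1 and 1429.7, and Col5a2 at 125 and 2296. The summed level of the 11 genes was 3417 in the control and 46935 after injury, and it was also higher after injury in CD140a(-)/Sca1(+) cells (3398 and 69099) and CD140a(+)/Sca1(-) cells (5503 and 56671). Within the 3 pairs the collagen difference was therefore of one direction.

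Genes that fold, trim and cross-link collagen went the same way. Of 22 kept, 13 were higher and none lower, and 8 exceeded all 3 controls. Loxl1 and Loxl3, lysyl oxidases that cross-link fibers, went from 17.7 to 940.0 and from 50.3 to 1046. Bmp1, the protease that removes the end of procollagen, went from 13.03 to 343, and Fkbp10, a collagen chaperone, from 5.30 to 246. Matricellular and adhesive glycoproteins counted 11 higher and none lower of 17, with 5 above all 3 controls. Postn (periostin) went from 106 to 2267 and Thbs2 (thrombospondin 2) from 39.7 to 855. Of 18 proteoglycan and hyaluronan genes 15 were higher and 1 lower, with 2 above and 1 below all 3 controls. Vcan (versican) and Bgn (biglycan) went from 36.7 to 962 and from 32.7 to 870.1, while Vcan stood at 517 in control CD140a(-)/Sca1(+) cells. Srgn, the proteoglycan of secretory granules in blood and endothelial cells, was the gene lower, from 755 to 30.8. Elastic fiber and basement membrane genes counted 8 higher and 1 lower of 14, with 6 above and none below all 3 controls. Fbln2 (fibulin 2) went from 40.8 to 999 and Fbn1 (fibrillin 1) from 6.32 to 207, while Lamc1, a laminin chain of basement membranes, went from 420.3 to 86.9.

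Matrix proteases and their inhibitors counted 18 higher and 2 lower of 24 kept, with a median change of 2.51, and 6 higher and 1 lower of the 11 past the value limit in both libraries. Mmp3 (stromelysin 1), which cleaves proteoglycans and activates other metalloproteinases, went from 129.8 to 4365, 33.6-fold higher (95% counting interval 28.6 to 39.9). Mmp14, a membrane-bound collagenase, went from 39.1 to 1202. Timp4 and Timp3 were lower, from 126 to 6.22 and from 703 to 167, in the opposite direction to Timp1, and 1 of these was 3-fold below all 3 controls. Of the 18, 4 exceeded all 3 controls, and Mmp3 was not among them, with 8439.5 in control CD140a(-)/Sca1(+) cells. Of 18 RefSeq promoters matched to 15 of these genes, 7 held the AP-1 letters TGANTCA on either strand (38.9%), against 7.81% of all 32851 promoters of the table. That share describes the list: over all genes 3-fold higher 5.76% of promoters held the letters, against 5.39% over all genes kept. The Mmp3 promoter is shown because it carries the letters close to the start of the gene. It lies on the plus strand at chr9:7445572-7445871 (GRCm38.p6), from 250 bases before to 50 after the start, with the AP-1 letters in capitals.
Mmp3: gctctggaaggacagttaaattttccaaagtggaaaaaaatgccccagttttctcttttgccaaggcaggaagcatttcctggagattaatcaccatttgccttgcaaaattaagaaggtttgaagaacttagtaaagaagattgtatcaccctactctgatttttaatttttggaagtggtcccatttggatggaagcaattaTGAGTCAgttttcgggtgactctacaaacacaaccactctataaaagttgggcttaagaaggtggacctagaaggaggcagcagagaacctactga

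**Figure D3:**
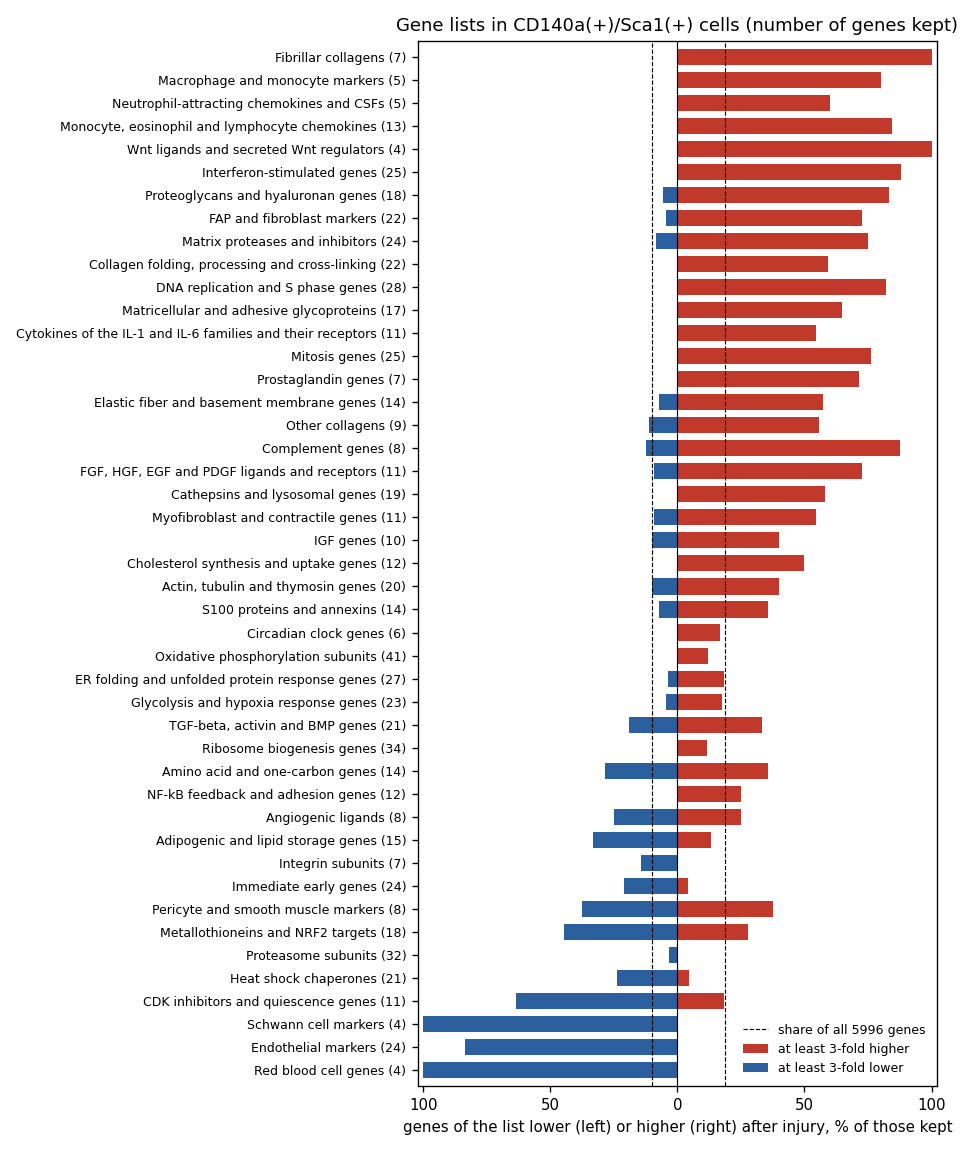
Share of kept genes of each list at least 3-fold higher (right) or lower (left) after injury in CD140a(+)/Sca1(+) cells (x axis, percent), for lists with at least 4 genes kept, ordered by median change. Dashed lines mark the share over all 5996 genes (18.6% higher, 9.89% lower), and fibrillar collagens stand at the top and red blood cell genes at the bottom.

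Of 13 genes for chemokines of monocytes, eosinophils and lymphocytes, 11 were higher and none lower, with a median change of 3.18. Ccl2 and Ccl7, which draw monocytes through the receptor CCR2, went from 156 to 3275 and from 17.7 to 961. Ccl6 and Ccl9 went from 1.77 to 365 and from 7.06 to 289. In control CD140a(-)/Sca1(+) cells, Ccl2 stood at 9181 and Ccl7 at 2085, above the injured CD140a(+)/Sca1(+) library, and 3 of the 11 exceeded all 3 controls. Among neutrophil chemokines and colony-stimulating factors 3 of 5 kept were higher. Cxcl5 and Cxcl3 went from 33.5 to 578 and from 9.71 to 234, and Csf1, the macrophage growth factor, from 105 to 1120.3. None of these 3 exceeded all 3 controls.

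Of 11 genes of the interleukin 1 and 6 families and their receptors, 6 were higher and none lower, but none of the 6 exceeded all 3 controls. The 4 past the value limit in both libraries were neither higher nor lower. Il33, an alarmin of stromal nuclei that acts through Il1rl1 on regulatory T cells and innate lymphoid cells, went from 46.5 to 1605, so that the ligand and the receptor were both higher, while control CD140a(-)/Sca1(+) cells held Il33 at 533. Il1rn, the interleukin 1 receptor antagonist, went from 17.6 to 1022, and Il1r1, the receptor it blocks, from 26.3 to 277. Genes of NF-kB feedback and adhesion counted 3 higher of 12, close to the share over all genes and with none above all 3 controls, among them Vcam1, from 40.9 to 339. Of 8 complement genes 7 were higher and 1 lower. Each of the 8 was kept through 1 library alone, which favours a difference. Cfb (factor B) went from 5.09 to 569 and C3 from 4.28 to 65.6. Prostaglandin genes counted 5 higher of 7, including Ptgs2 (cyclooxygenase 2), from 62.7 to 394, and Ptgis (prostacyclin synthase), from 29.1 to 859.9. None of the complement or prostaglandin genes was 3-fold above all 3 controls.

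Macrophage genes moved with these groups. Of 26 markers of macrophages and monocytes 5 were kept and 4 were higher, none of them 3-fold above all 3 controls. Each of the 5 was kept through the injured library alone, which favours an increase. Ctss and Msr1 were listed at 0 in the control and stood at 89.6 and 64.9 after injury, while Mpeg1 went from 1.77 to 121 and Lyz2 from 7.06 to 74.2. The summed level of the 26 genes was 130 in the control and 667 after injury, against 230 to 1772 in the other 4 libraries. The number listed at 0 was 12 in the control and 0 after injury. The defining leukocyte gene Ptprc stayed at or under 3 reads in both libraries. The part of macrophage RNA in the chemokine and interferon results was not tested.

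Interferon-stimulated genes, which cells switch on when they sense interferon to resist viruses, were higher after injury in CD140a(+)/Sca1(+) cells and mostly lower in CD140a(-)/Sca1(+) cells, a difference that was not tested for the list. In CD140a(+)/Sca1(+) cells 22 of 25 kept were higher after injury and none lower, with a median change of 2.97, but 21 of the 25 were kept through the injured library alone and 2 of the 4 past the value limit in both were higher. Irf7, the factor that amplifies interferon production, went from 44.5 to 848, 19.1-fold higher (95% counting interval 14.5 to 26.0). Ifi44 went from 7.06 to 349.7, Gbp3 (a guanylate-binding protein) from 7.36 to 260.0, and Oas1a (which makes the activator of RNase L) from 6.18 to 211. Stat2, a factor of the interferon signal, went from 9.71 to 148.

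In CD140a(-)/Sca1(+) cells the same list started high and was lower after injury, with 21 of these 25 genes at least 3-fold lower and none higher. Irf7 stood there at 879 in the control and 86.5 after injury. In CD140a(+)/Sca1(-) cells 9 of the 25 were higher and 4 lower, and 20 of the 37 list genes of the table were listed at 0 after injury. The summed level of the 37 genes was 989 in control and 6423 in injured CD140a(+)/Sca1(+) cells, 16990 and 2535 in CD140a(-)/Sca1(+), and 600 and 2228 in CD140a(+)/Sca1(-) cells. None of the 22 higher genes was 3-fold above all 3 controls. The injured CD140a(+)/Sca1(+) library was nevertheless the highest of the 3 injured libraries in this sum.

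**Figure D4:**
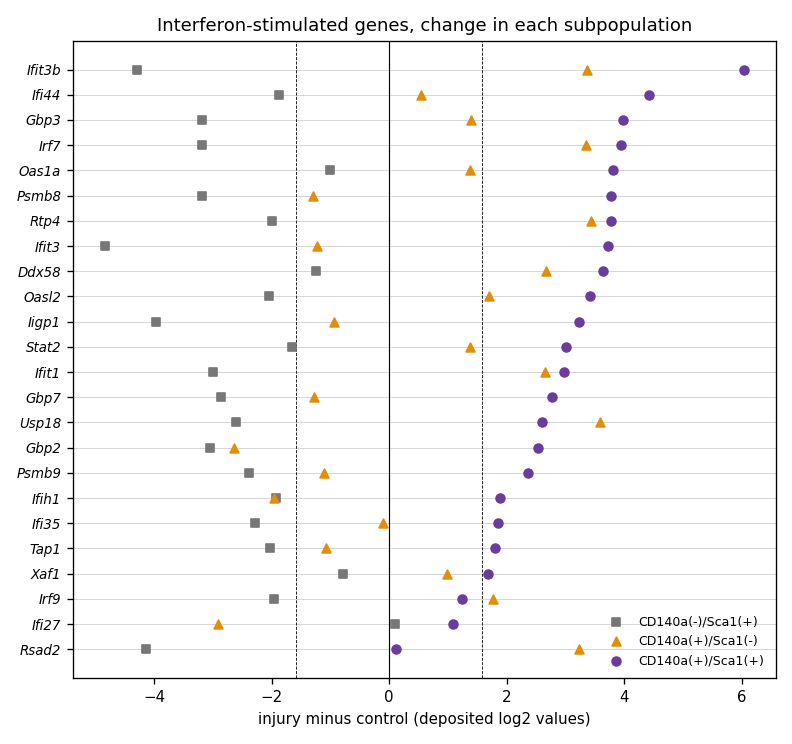
Change after injury (x axis, injured minus control on the deposited log2 scale) of 24 of the 25 interferon-stimulated genes kept, in each of the 3 subpopulations, 1 pair of libraries a symbol. Dashed lines mark 3-fold, and 21 circles of CD140a(+)/Sca1(+) cells lie to the right of the upper line while 20 squares of CD140a(-)/Sca1(+) cells lie to the left of the lower one.

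A letter search was added after these values were seen. The letters GAAANNGAA of the interferon response element stood on either strand in 12 of 22 RefSeq promoters (54.5%) matched to 20 of the 25 genes, against 8.56% of all promoters. That share describes the list: over all genes 3-fold higher 9.92% of promoters held the letters, against 7.75% over all genes kept. From the 12, Ifit3b and Oas1a are shown because the former is the list's largest increase and the latter holds overlapping matches beside its start. Ifit3b lies on the plus strand at chr19:34607707-34608006 and Oas1a on the minus strand at chr5:120907476-120907775 (both GRCm38.p6), and capitals mark the letters searched or their reverse complement.
Ifit3b: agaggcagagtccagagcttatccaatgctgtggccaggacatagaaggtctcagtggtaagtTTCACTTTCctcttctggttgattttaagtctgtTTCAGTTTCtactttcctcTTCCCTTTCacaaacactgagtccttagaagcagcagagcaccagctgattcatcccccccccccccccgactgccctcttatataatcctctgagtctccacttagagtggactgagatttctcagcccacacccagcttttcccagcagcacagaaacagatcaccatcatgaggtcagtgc
Oas1a: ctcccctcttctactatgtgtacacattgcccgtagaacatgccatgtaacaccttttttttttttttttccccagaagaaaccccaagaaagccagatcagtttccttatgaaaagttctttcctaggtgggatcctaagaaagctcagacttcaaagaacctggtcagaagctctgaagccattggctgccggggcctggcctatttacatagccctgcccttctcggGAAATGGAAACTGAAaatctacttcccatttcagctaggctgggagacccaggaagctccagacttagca

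Of 28 genes of DNA replication and S phase 23 were higher and none lower, with a median change of 2.50, and 20 exceeded all 3 controls. Of 25 mitosis genes 19 were higher and none lower, and 14 exceeded all 3 controls. Nearly all of these genes were kept through the injured library, which favours an increase: 7 replication genes passed the value limit in both libraries, of which 2 were higher, and 1 mitosis gene, which was not. The injured CD140a(+)/Sca1(+) library was the highest of all 6 for 26 of the 28 and 20 of the 25 genes, against 1519 of all 5996 (25.3%). Summed over the 42 replication genes of the table, the level was 2259 in the control and 9621 after injury, with 1968 to 3941 in the other 4 libraries. Over 50 mitosis genes it was 1218 and 6060, with 1310 to 2443 in the others.

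Mcm6 and Mcm4, subunits of the helicase that opens replication origins, went from 14.7 to 508 and from 19.4 to 567. Dut, which keeps uracil out of DNA, went from 1.86 to 304, and Pclaf, a partner of the sliding clamp PCNA, from 0.883 to 357. The control of Pclaf rests on 1 read and that of Dut on 2. Cdk1, the kinase of mitotic entry, went from 41.0 to 845, 20.6-fold higher (95% counting interval 15.5 to 28.6). Tpx2, which builds the spindle, and Top2a, which untangles DNA, went from 12.8 to 380.2 and from 5.30 to 216. Cdca8, a subunit of the chromosomal passenger complex, was listed at 0 in the control and stood at 64.8.

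Of 11 kept genes of CDK inhibitors and quiescence, 7 were lower and 2 higher, with a median change of -1.90. Cdkn1a, which encodes the CDK inhibitor p21, went from 5471 to 198, 27.6-fold lower (95% counting interval 24.9 to 30.7). Txnip went from 307 to 38.7 and Cdkn1b (p27) from 126 to 13.6. The genes that were higher, Ccnd1 and Ccnd2, encode D cyclins that start the cycle, and went from 20.3 to 480.1 and from 229 to 1737. The reads of Ccnd1 cannot be told apart from those of LTO1, as stated above, and 1 of the 2 exceeded all 3 controls. Only 1 of the 7 lower genes, Cdkn1a, was 3-fold below all 3 controls. Cdkn1a was lower after injury in the other sorts as well, at 4305 and 1003 in CD140a(-)/Sca1(+) and 2116 and 326 in CD140a(+)/Sca1(-) cells.

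The promoters of the replication and mitosis genes held different letters. E2F letters, TTTGGCGC or TTTCCCGC, stood in 8 of 28 promoters (28.6%) matched to 23 replication genes, against 1.56% of all promoters and in none of 20 promoters matched to 19 mitosis genes. The CHR letters TTTGAA stood in 13 of those 20 (65.0%), against 3 of the 28 and 17.9% of all promoters. CCAAT stood in 15 of the 20 and 16 of the 28, against 37.4% of all promoters. These shares describe the lists, not the change: among list genes 3-fold higher, CHR stood in 8 of 15 mitosis and E2F in 7 of 22 replication promoters. Over all genes 3-fold higher, CHR stood in 14.0% and E2F in 3.78% of promoters, against 12.0% and 3.11% over all genes kept. Mcm6 and Cdk1 are shown because each holds its group's letters at more than 1 place. Mcm6 lies on the minus strand at chr1:128359656-128359955 and Cdk1 on the minus strand at chr10:69352863-69353162 (both GRCm38.p6), with E2F letters in capitals in the former and CHR letters in the latter.
Mcm6: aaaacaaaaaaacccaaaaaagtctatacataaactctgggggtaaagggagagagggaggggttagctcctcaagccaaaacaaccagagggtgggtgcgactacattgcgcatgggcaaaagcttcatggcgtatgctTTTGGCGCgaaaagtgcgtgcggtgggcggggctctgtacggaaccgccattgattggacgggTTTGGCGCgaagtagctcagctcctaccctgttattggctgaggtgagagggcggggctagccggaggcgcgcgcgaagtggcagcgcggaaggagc
Cdk1: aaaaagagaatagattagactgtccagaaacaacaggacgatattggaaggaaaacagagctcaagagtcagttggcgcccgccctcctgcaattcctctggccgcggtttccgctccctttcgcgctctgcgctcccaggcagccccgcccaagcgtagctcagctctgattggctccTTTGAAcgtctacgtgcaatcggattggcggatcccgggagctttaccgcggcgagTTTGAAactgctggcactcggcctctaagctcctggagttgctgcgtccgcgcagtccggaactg

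**Figure D5:**
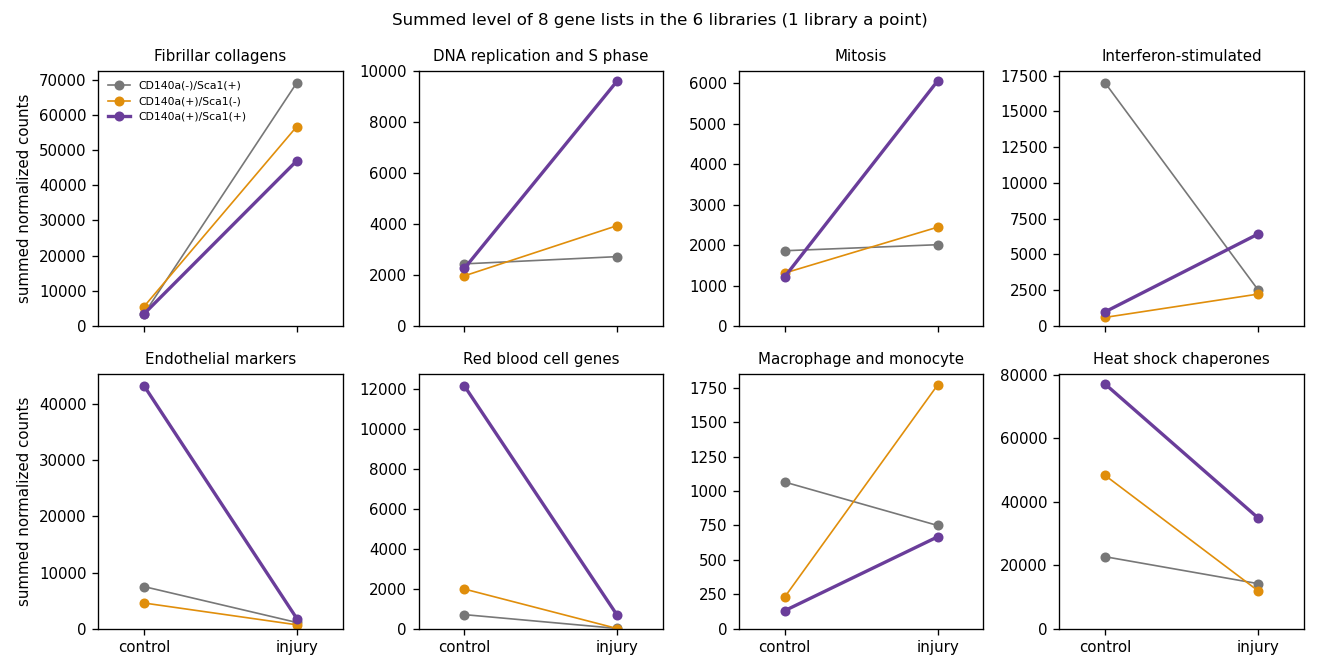
Summed normalized counts (y axis, from 0) of 8 gene lists in the control and injured library of each subpopulation, 1 library a point. CD140a(+)/Sca1(+) cells hold the highest sums of replication (9621) and mitosis genes (6060) after injury, and of endothelial (43342) and red blood cell genes (12162) in the control. Most of that endothelial sum lay in Fabp4 and Ednrb.

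Of 22 FAP and fibroblast markers 16 were higher and 1 lower, with a median change of 2.52, and 3 exceeded all 3 controls. Pdgfra, a gene of the sort described above, counts among the 16. Of the 10 past the value limit in both libraries 6 were higher and 1 lower. Smoc2 went from 28.2 to 906, Dpt (dermatopontin) from 15.0 to 515, and Mfap5 from 202 to 3859. Control CD140a(-)/Sca1(+) cells held them at 589, 386 and 4831. The summed level of the 36 markers was 3047 in the control and 21200 after injury, against 23162 and 24614 in CD140a(-)/Sca1(+) cells.

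Of 11 kept genes of FGF, HGF, EGF and PDGF ligands and receptors 8 were higher, among them Fgf7 (from 21.8 to 182) and Ereg, a ligand of the EGF receptor (from 3.53 to 87.4). Hbegf, another such ligand, was lower, from 379 to 42.9. Pdgfra, a gene of the sort, counts among the 8 and had the largest increase of the list. Of the 8, 3 exceeded all 3 controls, and the gene lower was below all 3. All 4 kept genes of Wnt ligands and their secreted regulators were higher, each kept through the injured library alone, which favours an increase. Wnt5a went from 2.30 to 104 and Sfrp2 from 9.71 to 181, and 1 of the 4 exceeded all 3 controls. The TGF-beta, activin and BMP list was split, with 7 higher and 4 lower of 21, of which 1 was above and 2 below all 3 controls. Inhba, the activin A subunit, went from 81.2 to 1545 and Grem1, a BMP antagonist, from 3.53 to 172. Gdf15, a stress-induced member of the family, went from 652 to 3.58, and Bmp6, which endothelial cells make to signal iron stores, from 293 to 17.0. The 4 higher IGF genes of 10, with Igfbp7 (from 248 to 2129.6) and Igfbp4 (from 219.8 to 1770.4) in front, all exceeded the 3 controls, while Igf2 was lower, from 90.1 to 5.09.

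Basic machinery gave few calls. Of 41 oxidative phosphorylation subunits 5 were higher and none lower, and of 34 ribosome biogenesis genes 4 and none. Of 32 proteasome subunits none was higher and 1 lower. Each share is below that over all genes, but most of these genes passed the value limit in both libraries, where calls are fewer. Past it in both, 4 of 33, 3 of 30 and none of 29 were higher, against 8.36% of all such genes. Only the proteasome share of increases was thus lower. Above all 3 controls stood 1 of these genes, of ribosome biogenesis. The one proteasome gene was Psmb3, from 1681 to 265. Bysl, needed for the small ribosomal subunit, went from 149 to 1465. Cholesterol synthesis counted 6 higher and none lower of 12, none of them above all 3 controls, among them Cyp51 (from 66.2 to 511) and Idi1 (from 17.6 to 134). Cathepsin and lysosome genes counted 11 higher and none lower of 19, with 2 above all 3 controls, led by the lysosomal cholesterol carrier Npc2, from 514 to 7594, and Gpnmb, from 124 to 1257.

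Of 21 heat shock chaperone genes 5 were lower, 1 higher and 15 neither, with a median change of -1.10. Hspa1a and Hspa1b, the stress-induced HSP70 genes, went from 5592 to 227 and from 2285 to 70.5, and Hspb1 (HSP27) from 1835 to 261. Among targets of NRF2, the regulator of the response to oxidants, Gclm and Gclc, the subunits of the first enzyme of glutathione synthesis, went from 8106 to 705 and from 1556 to 192, and Srxn1 (sulfiredoxin) from 2914 to 408. In the list of metallothioneins and NRF2 targets, 8 were lower and 5 higher of 18, with 1 below and none above all 3 controls, and the zinc importer Slc39a14 was the largest of the increases, from 17.0 to 778. The summed chaperone level was the highest of the 6 libraries in the CD140a(+)/Sca1(+) control, at 77115, and no chaperone gene was 3-fold below all 3 controls.

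Among the 20 largest decreases were several genes of endothelial cells. Of 24 endothelial markers kept, 20 were lower and none higher, with a median change of -3.73, 14 were 3-fold below all 3 controls, and 4 of the 7 past the value limit in both libraries were lower. Fabp4, which carries fatty acids in capillary and fat cells, went from 29146 to 298, 97.7-fold lower (95% counting interval 89.8 to 106). It lies at chr3:10204088-10208576 (GRCm38), minus strand. Ednrb, the endothelin B receptor, went from 7421 to 80.5, 92.1-fold lower (95% counting interval 78.3 to 109). Emcn (endomucin) and Sox17, a factor of arterial endothelium, went from 879 to 18.3 and from 302 to 0.704. Edn1 (endothelin 1) went from 252 to 1.06 and Angpt2 (angiopoietin 2) from 499.6 to 9.54. The same list was lower after injury in both other sorts, with 20 of the 24 lower in each, from a lower start: Fabp4 stood at 2318 and 47.2 in CD140a(-)/Sca1(+) and at 2590.1 and 156 in CD140a(+)/Sca1(-) cells.

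The list with the lowest median was that of red blood cells, at -3.93. All 4 red blood cell genes kept were lower, such as Hba-a1, from 2801 to 52.5. All 4 Schwann cell genes kept were lower, among them S100b, a calcium-binding protein of glia, from 84.7 to 9.01. These 4 were kept through the control library alone, which favours a decrease. None of the red blood cell or Schwann cell genes was 3-fold below all 3 controls. The Schwann sum over 13 genes was 441 in the control and 86.0 after injury, and 2262 in control CD140a(+)/Sca1(-) cells. Pericyte and smooth muscle genes were split, with 3 lower, 2 of them below all 3 controls, and 3 higher, none above all 3, of 8: Rgs5, a pericyte marker, went from 465 to 6.89, and Pdgfrb, the PDGF receptor beta, from 15.0 to 129. Fat storage genes counted 5 lower and 2 higher of 15, with 2 below and none above all 3 controls. Besides Fabp4 the lower ones included Cd36 (a fatty acid importer, from 2164 to 89.3) and Pnpla2 (adipose triglyceride lipase, from 347 to 20.3). Fasn (fatty acid synthase) was higher, from 78.7 to 523.

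The response was last set beside that of the other sorts. At the same limits, 220 of 5579 genes were higher (3.94%) and 327 lower (5.86%) in CD140a(-)/Sca1(+) cells, and 1174 of 5950 higher (19.7%) and 1645 lower (27.6%) in CD140a(+)/Sca1(-) cells, whose injured library had the many genes at 0. Of the 1116 higher and 593 lower genes of CD140a(+)/Sca1(+) cells, 85 and 88 passed 3-fold the same way in all 3 sorts. The change in CD140a(+)/Sca1(+) cells was tested against the mean change of the other 2 with limma, which left 1 residual degree of freedom. That degree of freedom is the gap between the changes of the other 2 sorts. The SE and p-values below therefore measure no spread between replicates. Of 15532 genes, 0 had an adjusted p under 0.05 and 303 an unadjusted p under 0.05 (1.95%), 283 of them with the higher change in CD140a(+)/Sca1(+) cells. The lowest adjusted p was 0.998 in limma, but the call depends on how the variance is modelled: with a mean-variance trend 29 genes had an adjusted p under 0.05, 19 with the higher and 10 with the lower change, among them Ly6a, Mmp3, Il33, Ccl2 and Rnf225, named after their values were seen. Other genes of the 29 were mitochondrially encoded (mt-Nd4, mt-Co1, mt-Atp6, mt-Nd3 and mt-Nd5, with the lower change). Ribosomal protein genes were there too (Rplp2, Rps23, Rpl5 and Rpl27a with the higher, Rps25 with the lower change). The fit with a trend had infinite prior degrees of freedom, so it used no variance particular to a gene. Among the 10 genes with the lowest unadjusted p and a higher change were Ly6a, Gbp2 and Psmb8, of which Ly6a encodes a protein of the sort. The Ly6a change exceeded that of the others by 6.58 on the log2 scale (SE 1.18, unadjusted p = 0.0027 in limma). Among the 10 with a lower change were Rnf225, Cd36 and Syne1. Rnf225, a gene for a RING finger protein, went from 3369 to 40.3, and stood at 160.1 and 229 in CD140a(-)/Sca1(+) and 491 and 473 in CD140a(+)/Sca1(-) cells.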

How the data were processed

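Six-library expression profiles of sorted muscle stromal cells were analysed. QuantSeq libraries, which sample transcript ends, had been read on an Ion Proton. The authors used FastX-Toolkit for trimming, STAR and BRB-seqtools for alignment to GRCm38 (mm10) and counting, and DESeq2 for normalization. What they deposited is a table of log2 values after a variance stabilizing transformation, on which a gene with no read stands at 2.57. Normalized counts were obtained by inverting it, a step first tested on generated counts with known answers. The smallest step between low values gave the size of 1 read. Of the low values, 60.1% to 69.3% per library lay within 0.02 reads of a whole number, so reads could be recovered for part of the genes only, and no count model was run. Estimated depth was 2095177 to 14142111 reads per library.

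Differences within CD140a(+)/Sca1(+) cells compare 1 library with 1 library and have no p-value. Intervals are exact (Clopper-Pearson, 95%) on estimated reads. Folds in brackets are ratios of normalized counts. A limit of 3 reads stands in for a gene listed at 0. The sorts were compared with limma 3.58.1 in R 4.3.3 on genes whose 80th percentile was at least 8 on the linear deposited scale, with Benjamini-Hochberg adjustment. The plan had not known that the table was on a log2 scale before inversion, and its tests were kept. Other computing used Python 3.11.15, numpy 2.4.6, pandas 2.3.3 and scipy 1.17.1. Identifiers were matched to GENCODE M21 for 22453 of 22483 genes.

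The genes kept, the 51 gene lists and the tests were chosen with earlier results of these data known. Named genes are the 20 largest changes each way among genes with at least 100 normalized counts, up to 4 past 3-fold for each list (or the 2 with the highest value where none is), the genes of the sort and gate, and 10 each way with the lowest p in the comparison of sorts. Outside this rule, Cdkn1b, Col1a1, Col1a2, Lamc1, Oas1a, Stat2, Timp3 and Timp4, and the genes at the limits, were chosen after their values were seen. The study's cytometry, culture and tissue sections were not used here. A few genes of the lists count in every total but are not reported here by name.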

Additional observations from a re-analysis of the deposited data

Results flagged for a closer look

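Among the genes that the naming rule chose and that are reported here, 3 were at least 3-fold higher after injury in CD140a(+)/Sca1(+) cells and at least 3-fold lower in both other sorts. Tlr3 and Gbp2 were named for their low unadjusted p in the comparison of sorts, and Ly6a was among the lowest there too. That comparison uses the same values and favours genes of opposite direction, so the flag is no separate support. The difference rests on 1 pair of libraries a sort, and for none of the 3 did it pass the adjusted threshold in limma without a trend. With a mean-variance trend it passed for Ly6a (adjusted p = 2.1e-05), and not for Tlr3 (0.642) or Gbp2 (0.731). Ly6a, the Sca1 gene itself, changed by 3.96 on the deposited log2 scale, against -2.30 in CD140a(-)/Sca1(+) and -2.94 in CD140a(+)/Sca1(-) cells. It encodes a protein of the sort, and its value in the injured CD140a(+)/Sca1(-) library rests on 2 reads. The part of the sort in the Ly6a difference was not tested. Tlr3, the sensor of double-stranded RNA, changed by 2.81, against -3.49 and -1.92, and Gbp2, a guanylate-binding protein, by 2.54, against -3.05 and -2.64. After injury Tlr3 and Gbp2 were listed at 0 in the CD140a(+)/Sca1(-) library, where 69.1% of all genes were, and the part of that library's zeros in these differences was not tested.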

How the results depend on the processing

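The counts of genes at least 3-fold higher and lower stayed within 1.5 times of 1116 and 593 under all 6 planned settings: 750 to 1426 higher and 417 to 849 lower, with value limits of 5 and 7, centring on the median, equal totals, and log2 of the normalized count plus 1 or plus 10. Under the setting added after the data were seen, a difference of at least 3-fold from each of the 3 control libraries, they were 269 and 105. All 269 and all 105 were among the 1116 and the 593, as the setting's own construction requires. Of 200 named genes past 3-fold, 190 to 200 stayed past it in the same direction under the 3 scalings tried, and none reversed. The comparison with the other sorts gave 0 genes at an adjusted p under 0.05 in limma, and also 0 with the filter on normalized counts, without a filter, and with log2 of the normalized count plus 1. With a mean-variance trend it gave 29, of which 19 had the higher and 10 the lower change in CD140a(+)/Sca1(+) cells. The cause was not tested. Against the CD140a(-)/Sca1(+) pair alone the design leaves no residual degrees of freedom, so only values are given. No replicate block was fitted, since the labels number no replicates. The comparison with the other sorts has the sort as a block, and a blocked test of the mean change over the 3 pairs was not run, as it would not be about CD140a(+)/Sca1(+) cells alone. Depth limits the low genes, since 27 of the higher genes were listed at 0 in the control and 15 of the lower ones after injury.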

Other observations

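Of 20 kept genes of actin, tubulin and thymosin 8 were higher, 2 lower and 10 neither, with Tubb5 and Tuba1b, tubulin chains, going from 976 to 6976 and from 426 to 3515 normalized counts. Of 14 S100 proteins and annexins 5 were higher, 1 lower and 8 neither, with Lgals1 (galectin 1) going from 349.6 to 4670.5 and Anxa1, an anti-inflammatory annexin, from 35.3 to 785. Myofibroblast and contractile genes counted 6 higher and 1 lower of 11, among them Tagln2, from 43.1 to 717, and Actn1 (alpha-actinin 1), from 324 to 2174. Other collagens counted 5 higher and 1 lower of 9, with Col6a1 from 18.5 to 280.3 and Col8a1 from 23.8 to 362. The 3 of these 9 past the value limit in both libraries were neither higher nor lower. In each of these 4 lists 2 of the higher genes exceeded all 3 controls and none of the lower ones was below all 3.

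Of 14 amino acid and one-carbon genes 5 were higher and 4 lower: Phgdh, the first enzyme of serine synthesis, went from 12.4 to 191, and Slc7a11, the cystine importer, from 1518 to 288. Of 23 glycolysis and hypoxia genes 4 were higher and 1 lower, close to the 18.6% higher and 9.89% lower over all genes or below it, with Pgam1 from 104 to 607 and the glucose carrier Slc2a1 from 1442 to 273. Of 24 immediate early genes 1 was higher and 5 lower, with Atf3 from 216 to 23.3 and Jund from 238 to 29.7. The ER folding list counted 5 higher and 1 lower of 27, likewise no more than over all genes, angiogenic ligands 2 and 2 of 8, clock genes 1 and 0 of 6, and integrin subunits 0 and 1 of 7. Of the genes in these 7 lists, 2 higher ones exceeded all 3 controls (1 of glycolysis and hypoxia, 1 angiogenic) and 5 lower ones were below all 3 (3 immediate early genes, 1 angiogenic, 1 integrin). The integrin was Itga6, a laminin receptor chain, from 79.5 to 1.07. Few markers of other cells were kept: 2 of 14 for neutrophils (1 higher), 1 of 16 for lymphocytes (higher), 1 of 23 for muscle fibers (neither), 2 of 15 for satellite cells (1 higher), 3 of 10 for tendon (2 higher) and 1 of 10 for adipocytes (lower).

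Over all genes kept, 16 passed 3-fold upward in CD140a(+)/Sca1(+) cells and 3-fold downward in both other sorts, and 0 showed the opposite pattern. Of the 16, 14 were at 0 in the injured CD140a(+)/Sca1(-) library, as were 69.1% of all genes, and the part of these zeros in the contrast was not tested. Besides the 3 described above they included Cxcl10, Ifih1, Adar, Daxx, Nmi and Parp11, chosen after their values were seen. The difference between sorts was not tested for this set.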
